A study of Homo sapiens with 6 samples.

Results

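The 10 genes described here are mesenchymal-state and epithelial-mesenchymal transition (EMT) genes: the transcription factors ZEB1, ZEB2, SNAI2, TWIST1 and PRRX1, the Hippo pathway coactivators YAP1 and WWTR1, and the structural or matrix markers VIM, FN1 and SPARC. They were taken by symbol from a written list, and all 10 of 10 were found among the 19923 genes of the count tables. All 10 passed the filter on low counts, which kept 15311 genes. The libraries were poly(A) RNA-seq of the established neuroblastoma cell line Kelly, labelled MYCN-amplified and of WT genotype. Cells received a control siRNA (siControl, 3 libraries) or an siRNA against METTL3 (siMETTL3, 3 libraries), both by transient lipofection, and were collected 72 hours later. METTL3 is the enzyme that places N6-methyladenosine (m6A) on mRNA, and the design asks how its depletion changes the transcriptome. The labels name no siRNA sequence and do not say whether the 3 libraries of a group came from separate cultures, so the p-values measure only the spread between these libraries.

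EMT is a change of cell state in which cells lose epithelial junctions and gain motility and matrix production. ZEB and SNAI proteins are zinc finger repressors that bind E-box sequences and silence epithelial genes such as CDH1, while TWIST1 and PRRX1 are a basic helix-loop-helix factor and a homeobox factor. YAP1 and WWTR1 (TAZ) carry signals of the Hippo pathway to TEAD transcription factors. Neuroblastoma cells are not epithelial. They are known in a noradrenergic state, which resembles sympathetic neuroblasts, and in a mesenchymal state with high VIM, FN1, PRRX1 and YAP1.

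Of the 10 genes, 3 rose and 3 fell in siMETTL3 at a false discovery rate (FDR) under 0.05. VIM, SPARC and PRRX1 rose to between 1.70 and 1.86 times the control level, and FN1 fell to 52.5% of it. TWIST1 and ZEB2 fell slightly, to 81.8% and 87.8%. ZEB1, SNAI2, YAP1 and WWTR1 did not pass the test. The groups did not overlap for 7 of the 10 genes, the 6 called ones and YAP1, against 49.9% of all tested genes. Among all 15311 tested genes 37.8% were called, 18.6% higher and 19.2% lower, so calls in both directions were frequent in this comparison. The median log2 fold change was -0.11 over the 10 genes and -0.0021 over all tested genes. Without siControl replicate 3 the median of the 10 genes changed sign, to 0.068.

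Upstream windows of FN1, SPARC and VIM, the matrix and cytoskeletal genes with the smallest FDR of the 10, are shown first. Each window is the 250 bases before the RefSeq transcription start (GRCh38.p14), printed 5′ to 3′ on the gene's strand. Capitals mark matches to the letters CACCTG (an E-box of the kind ZEB and SNAI factors bind, both strands), GGAATG (the core of the TEAD motif, both strands) or TGACGTCA (a cyclic AMP response element, the same on both strands, searched after the windows had been read).
FN1, chr2:215436069-215436318, minus strand: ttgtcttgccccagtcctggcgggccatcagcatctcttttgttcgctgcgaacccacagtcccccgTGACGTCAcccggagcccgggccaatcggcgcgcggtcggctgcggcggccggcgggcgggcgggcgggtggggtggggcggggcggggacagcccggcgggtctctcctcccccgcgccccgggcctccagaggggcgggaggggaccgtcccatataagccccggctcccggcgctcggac
SPARC, chr5:151686916-151687165, minus strand: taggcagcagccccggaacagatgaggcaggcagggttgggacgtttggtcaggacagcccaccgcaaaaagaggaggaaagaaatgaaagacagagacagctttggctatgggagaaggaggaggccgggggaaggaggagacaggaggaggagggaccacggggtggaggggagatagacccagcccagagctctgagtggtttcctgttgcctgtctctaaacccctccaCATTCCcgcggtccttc
VIM, chr10:17227991-17228240, plus strand: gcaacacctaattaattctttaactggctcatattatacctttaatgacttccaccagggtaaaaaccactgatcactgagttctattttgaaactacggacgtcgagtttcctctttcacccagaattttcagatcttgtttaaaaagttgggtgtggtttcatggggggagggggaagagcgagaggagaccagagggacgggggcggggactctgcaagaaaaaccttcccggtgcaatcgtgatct

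The E-box letters were absent from these FN1, SPARC and VIM windows, and 17.5% of all 35116 RefSeq windows of this length held them. The TEAD letters were present in the SPARC window, 17 bases before the start, and in 11.9% of all windows. The FN1 window held the cyclic AMP response element, 183 bases before the start, which 1.6% of all windows held. No motif overlapped another. The table held windows for 8 of the 10 genes. YAP1 had 1 TEAD match, and ZEB1, with 7 windows for alternative starts, had E-box matches in 2 of them. The windows of ZEB2, PRRX1 and WWTR1 held none of the 3 motifs. These matches describe letters in the reference, and no binding was measured.

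The transcripts were also searched for GGACT, a common form of the m6A consensus. For the 6 genes that passed the test, the match nearest the stop codon is given with 10 bases on each side. All 6 of these nearest matches lay in coding sequence. Counted from the A of the match to the last base of the stop codon, the distance was 103 bases in TWIST1, 256 in SPARC, 531 in PRRX1, 849 in FN1, 870 in ZEB2 and 1147 in VIM. Every GGACT is in capitals, and the VIM window holds both of the matches of that transcript (GRCh38, canonical transcripts of GENCODE release 44).
FN1, chr2:215372026-215372050, minus strand: acacggtccgGGACTcaatccaaat
SPARC, chr5:151666427-151666451, minus strand: tgctggcccgGGACTtcgagaagaa
VIM, chr10:17229664-17229688, plus strand: aGGACTcggtGGACTtctcgctggc
PRRX1, chr1:170664413-170664437, plus strand: ggagtcgccgGGACTcaccagcggc
TWIST1, chr7:19116804-19116828, minus strand: gcgacgagctGGACTccaagatggc
ZEB2, chr2:144398400-144398424, minus strand: accatacccaGGACTggatcagatg

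SPARC had 7 GGACT in 3451 bases (2.03 per kb) and PRRX1 had 6 in 4061 (1.48 per kb). These were the highest densities of the 10 transcripts, above the upper quartile of 1.39 per kb over 14591 tested genes. FN1 had 7 in 8390 bases (0.834 per kb), all of them coding, and VIM had 2 in 2154 (0.929 per kb), also coding. After the stop codon lay 5 of the 6 matches of PRRX1, 3 of 7 in SPARC, 3 of 6 in ZEB2 and 1 of 2 in TWIST1. SNAI2 (0.459 per kb) and ZEB1 (0.505 per kb) lay below the lower quartile of 0.563 per kb. The median over tested genes was 0.929 per kb, and 91.3% of them held at least 1 match. Methylation itself was not measured in these tables.

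METTL3, the targeted gene, was at 53.5, 52.8 and 56.2 CPM (TMM-normalised read count, scaled to a common library size) in siControl replicates 1 to 3 and at 32.99, 31.8 and 34.3 CPM in siMETTL3 (log2 fold change -0.71, SE 0.070, FDR 4.68e-06). The METTL3 span overlaps TOX4, and reads over both genes were counted for each, so the METTL3 level can include TOX4 reads. All FDR values of single genes are from edgeR's quasi-likelihood test with Benjamini-Hochberg adjustment over all tested genes, unless another tool is named. Library totals ranged from 15430000 (siControl replicate 3) to 21565013 counts. The siControl libraries differed more among themselves than the siMETTL3 libraries did. Chi-square per degree of freedom over tested genes was 16.7 and 9.1 for siControl replicate 3 against replicates 1 and 2. It was 5.72 between siControl replicates 1 and 2, and 3.1 to 3.84 between siMETTL3 libraries. Markers of the noradrenergic state were well expressed in every library. HAND2, a transcription factor of sympathetic neurons, was at 375 to 397 CPM in siControl and 527 to 563 CPM in siMETTL3. TH, the rate-limiting enzyme of catecholamine synthesis, was at 165 to 210.5 CPM in siControl and 481 to 556 CPM in siMETTL3. GATA3, another factor of this lineage, was at 119 to 128 CPM in siControl and 138 to 152 CPM in siMETTL3. GATA2, DBH, MYCN and CHGA were likewise higher in siMETTL3 without overlap. Of all tested genes, 49.9% showed no overlap between the groups, in either direction. ISL1, a LIM homeobox factor on the same list, went the other way without overlap, from 99.9 to 110.6 CPM in siControl to 41.6 to 48.2 CPM in siMETTL3. The groups overlapped for PHOX2A and TBX2. Noradrenergic markers therefore did not all move one way, and these genes were named after their values were seen. Markers of other cell types were summed: 8 fibroblast genes at 92.7 to 107 CPM in siControl and 94.6 to 103 CPM in siMETTL3, most of it PDGFRB, with COL1A2, DCN, LUM and FAP each below 1 CPM on average. The sums of 5 endothelial genes (6.17 to 7.86 and 8.99 to 11.1 CPM), 6 immune genes (2.15 to 3.06 and 1.61 to 2.19 CPM, AIF1 at 0 in every library) and 4 Schwann cell genes (5.38 to 5.81 and 6.53 to 8.65 CPM, S100B at 0 in 5 libraries) were low, as were those of 5 epithelial genes (7.43 to 7.88 and 8.52 to 10.4 CPM). The endothelial, Schwann and epithelial sums were higher in every siMETTL3 library than in every siControl library, but their genes did not all move alike. VWF, the highest endothelial gene, was at 3.8 to 5.2 CPM in siControl and 6.7 to 8.8 CPM in siMETTL3. PECAM1 was lower, at 0.65 to 1.13 CPM in siControl and 0.19 to 0.64 CPM in siMETTL3. Among the epithelial genes KRT19 was higher without overlap, while the groups overlapped for EPCAM and CDH1. The part of these markers in the results below was not tested. In bulk libraries a change in the share of cells of one kind and a change of RNA per cell cannot be told apart.

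**Figure D1:**
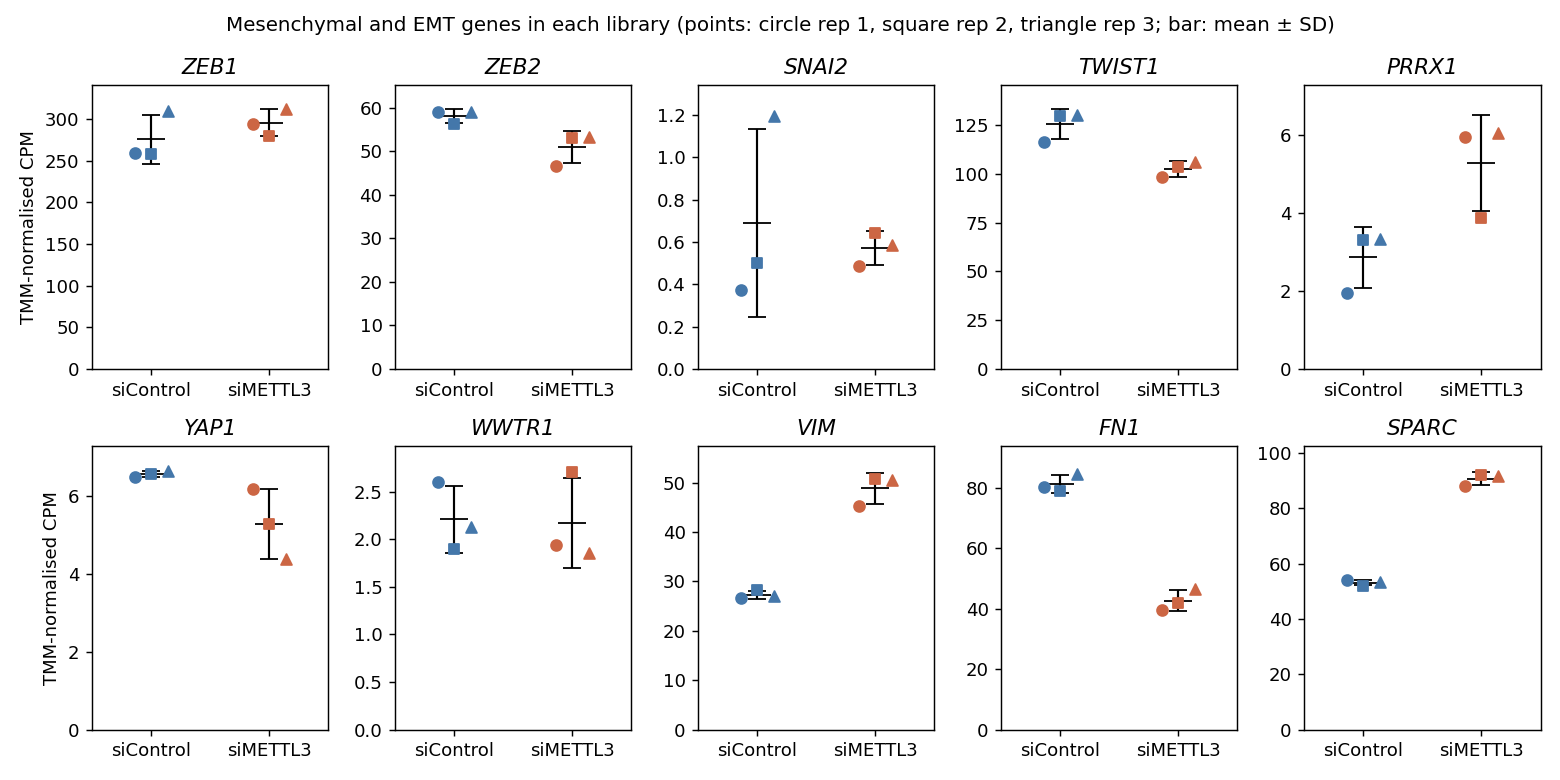
TMM-normalised CPM (y axis, starting at 0, own scale for each gene) of the 10 genes in the 3 siControl and 3 siMETTL3 libraries (x axis). Symbols are single libraries and bars the mean ± SD of 3. VIM and SPARC lie higher and FN1 lower in all 3 siMETTL3 libraries, with wide gaps between the groups, while the groups overlap for ZEB1, SNAI2 and WWTR1.

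VIM encodes vimentin, the main intermediate filament of mesenchymal cells (chromosome 10, 17228241 to 17237593, plus strand). It was measured at 26.6, 28.2 and 27.1 CPM in siControl and at 45.3, 50.8 and 50.5 CPM in siMETTL3. All siMETTL3 libraries lay far above the controls. The log2 fold change was 0.84 (SE 0.077, FDR 2.69e-06), which is 1.79 times the control level. On the log2 scale it ranged from 0.81 to 0.89 over the 6 fits that each left out 1 library. Counting was not stranded, and the antisense gene VIM-AS1 overlaps the VIM span, so reads of the 2 cannot be told apart.

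SPARC encodes osteonectin, a secreted protein that binds collagen and calcium (chromosome 5, 151661096 to 151686975, minus strand). Its levels were 54.0, 52.1 and 53.5 CPM in siControl and 87.9, 92.1 and 91.8 CPM in siMETTL3. The spread within a group was small (SD 0.997 and 2.35 CPM) against the distance between the groups. SPARC rose with a log2 fold change of 0.77 (SE 0.059, FDR 5.55e-07) and stayed between 0.75 and 0.79 over the fits with 1 library removed.

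FN1 encodes fibronectin, an adhesive matrix glycoprotein (chromosome 2, 215360440 to 215436073, minus strand). It went the other way, from 80.2, 79.1 and 84.8 CPM in siControl to 39.6, 42.0 and 46.5 CPM in siMETTL3. The lowest control library was thus well above the highest siMETTL3 library. The log2 fold change was -0.93 (SE 0.071, FDR 5.55e-07), ranging from -0.99 to -0.88 over the fits with 1 library removed. FN1 was the only gene of the 10 whose span overlaps no other gene of GENCODE release 44; the other spans each hold at least 1 noncoding gene. Set against SPARC, FN1 made up 59.8%, 60.3% and 61.3% of the counts of the 2 genes in siControl and 31.1%, 31.3% and 33.6% in siMETTL3. The exact (Clopper-Pearson) 95% intervals reached from 58.0% to 63.4% over the controls and from 29.3% to 35.4% over siMETTL3. This pair was chosen after its values were seen. The intervals treat reads as independent, which read mates are not, so they are too narrow even for counting error. An exact permutation test of 3 against 3 libraries cannot give a two-sided p below 0.10.

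Among the transcription factors, PRRX1, which can drive neuroblastoma cells toward the mesenchymal state when it is expressed at high levels, rose from a low level (chromosome 1, 170662728 to 170739421). It had 42, 66 and 50 counts (1.95, 3.30 and 3.32 CPM) in siControl and 122, 84 and 124 counts (5.93, 3.86 and 6.04 CPM) in siMETTL3. The groups did not overlap, but siMETTL3 replicate 2 lay close to the controls. The log2 fold change was 0.90 (SE 0.24, FDR 0.0103). Without siMETTL3 replicate 1 or replicate 3 it no longer passed the test (log2 fold changes 0.80 and 0.79, FDR 0.0549 and 0.0579).

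TWIST1 (chromosome 7, 19020991 to 19117636, minus strand) was at 116, 130 and 130 CPM in siControl and at 98.3, 103 and 106 CPM in siMETTL3. Every siMETTL3 library was below every control. It fell by 0.29 on the log2 scale (SE 0.062, FDR 0.00239), with a range of -0.34 to -0.26 over the fits with 1 library removed. The counted span is 96646 bases long, of which the canonical protein-coding transcript covers 2.24%, because another annotated transcript extends it. Where in the span the reads fell was not measured.

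The paralogous repressors ZEB1 and ZEB2 were at different sides of the threshold. ZEB2 (chromosome 2, 144364364 to 144521057, minus strand) had 59.1, 56.2 and 59.1 CPM in siControl and 46.7, 53.0 and 53.4 CPM in siMETTL3, with no overlap. Its log2 fold change was -0.19 (SE 0.070) and its FDR 0.0498, just under the threshold. This call was lost in all 6 fits that left out a library (FDR 0.0505 to 0.241) and with all 6 libraries under the RLE, upper quartile and total count scalings (FDR 0.0507, 0.0699 and 0.0880), with the stricter filter (FDR 0.0563) and in DESeq2 (FDR 0.0805). ZEB2 stayed lower in each of these fits.

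ZEB1 (chromosome 10, 31318495 to 31529814, plus strand) was at 259, 258 and 310 CPM in siControl and at 294, 280 and 312 CPM in siMETTL3. Of the controls, replicate 3 lay within the siMETTL3 range and the others below it. The log2 fold change was 0.10, with a 95% interval from -0.058 to 0.26 (FDR 0.309). Without siControl replicate 3 it was 0.19 and passed the test (FDR 0.00376). Antisense lncRNA genes overlap both spans (ZEB1-AS1 and ZEB2-AS1), and their reads cannot be separated from those of ZEB1 and ZEB2. ZEB1 took 81.5%, 82.1% and 84.0% of the counts of the 2 genes in siControl and 86.3%, 84.1% and 85.4% in siMETTL3. The groups nearly touched, since the exact 95% intervals of siControl replicate 3 (83.0% to 84.9%) and siMETTL3 replicate 2 (83.2% to 84.9%) overlapped.

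SNAI2, which encodes the repressor Slug, was at the edge of detection (chromosome 8, 48917598 to 48921740). Its counts were 8, 10 and 18 in siControl and 10, 14 and 12 in siMETTL3, or 0.371, 0.501 and 1.195 CPM against 0.486, 0.643 and 0.584 CPM. All siMETTL3 values fell within the range of the controls. The log2 fold change of -0.19 had a wide 95% interval, from -1.24 to 0.87 (FDR 0.802), so changes of either sign within it remain possible. Without siControl replicate 3 its sign reversed (0.39, FDR 0.613).

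YAP1 (chromosome 11, 102110447 to 102233424) was at 6.49, 6.56 and 6.64 CPM in siControl and at 6.17, 5.28 and 4.38 CPM in siMETTL3. All siMETTL3 libraries were lower, but replicate 1 only slightly. The log2 fold change of -0.31 had a 95% interval from -0.66 to 0.032 and did not pass the test (FDR 0.144). WWTR1 (chromosome 3, 149517235 to 149736714) had 56, 38 and 32 counts in siControl and 40, 59 and 38 in siMETTL3, which is 2.60, 1.90 and 2.12 CPM against 1.94, 2.71 and 1.85 CPM. The groups overlapped throughout (log2 fold change -0.028, 95% interval -0.58 to 0.53, FDR 0.945). YAP1 made up 71.4%, 77.5% and 75.8% of the counts of the 2 coactivators in siControl and 76.0%, 66.1% and 70.3% in siMETTL3, with overlapping groups.

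**Figure D2:**
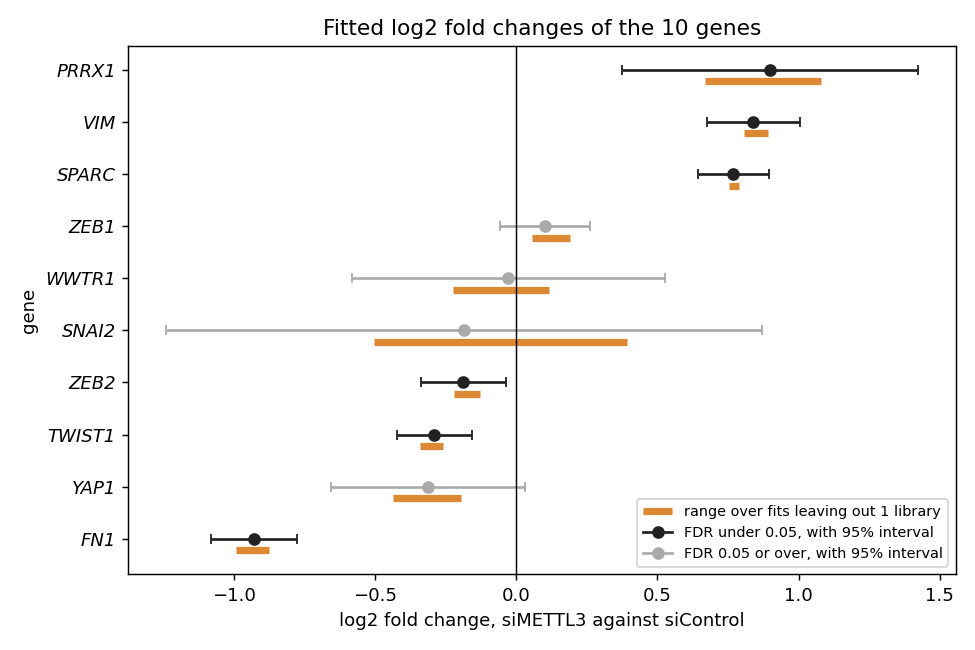
Log2 fold change of siMETTL3 against siControl (x axis) for each of the 10 genes (y axis). Points and thin bars are the edgeR estimate and its 95% interval, black where the FDR is under 0.05 and grey otherwise. Orange bars are the range over the 6 fits that left out 1 library; that of FN1 runs from -0.99 to -0.88, and those of SNAI2 and WWTR1 cross 0.

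**Figure D3:**
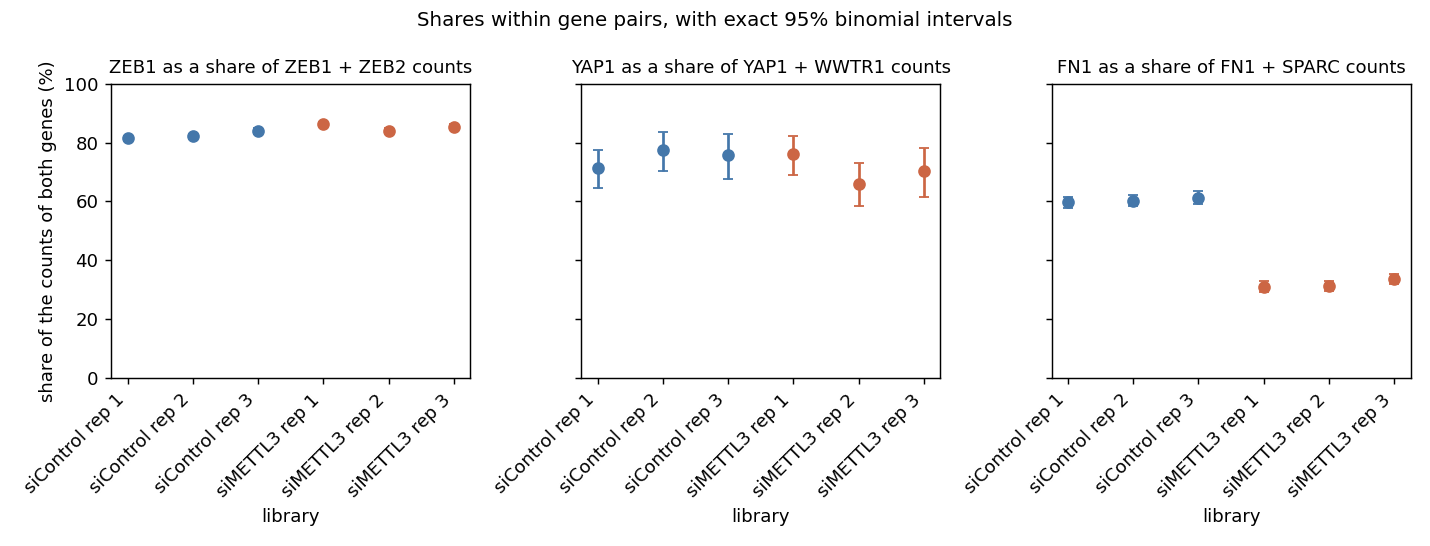
Share of the counts of 2 genes that fell on the first (y axis, %), in each library (x axis, blue siControl, orange siMETTL3), with exact 95% binomial intervals. The FN1 share against SPARC is 59.8% to 61.3% in siControl and 31.1% to 33.6% in siMETTL3, while the YAP1 shares overlap; counts are not corrected for length, so only libraries are compared.

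Levels of different genes were compared per length in siControl. Per kb of the canonical transcript the order was TWIST1 (76.9 ± 4.73 CPM per kb, SD, n = 3), ZEB1 (46.4 ± 4.96), SPARC (15.4 ± 0.289), VIM (12.7 ± 0.373), FN1 (9.69 ± 0.359), ZEB2 (6.28 ± 0.180), YAP1 (1.22 ± 0.0136), PRRX1 (0.703 ± 0.194), WWTR1 (0.438 ± 0.0704) and SNAI2 (0.316 ± 0.203). The libraries of PRRX1, WWTR1 and SNAI2 overlapped on this scale, so their order is not resolved. The TWIST1 transcript covers 2.24% of its counted span, so any reads elsewhere in the span raise its value on this scale. Because the counts cover introns, the order was also taken per kb of the gene span. It was then VIM (2.92 CPM per kb), SPARC (2.05), ZEB1 (1.30), TWIST1 (1.30), FN1 (1.075), ZEB2 (0.371), SNAI2 (0.166), YAP1 (0.0533), PRRX1 (0.0372) and WWTR1 (0.0101), with ZEB1 and TWIST1 not distinguishable and SNAI2 spread over a SD of 0.107. On both scales ZEB1, TWIST1, VIM, SPARC and FN1 were the 5 highest, and YAP1, PRRX1, WWTR1 and SNAI2 were the 4 lowest.

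Genes around these 10 were described from 8 lists, and no list was tested as a set. Over all tested genes 37.8% were called. Among tested list genes the share was 46.7% for the mesenchymal genes and 46.7% for fibronectin receptors and SPARC relatives. It was 42.3% for Hippo genes, 37.5% for YAP1 and WWTR1 targets, 33.3% for partners and 33.3% for intermediate filaments. Transcription factors had 30% and epithelial genes 15.4%. Of 40 other mesenchymal matrix, adhesion and contractile genes, 30 were tested, and 9 rose and 5 fell (median log2 fold change 0.13). The 9 that rose were COL5A1, TPM1, COL1A1, COL6A1, COL6A2, LOXL1, LOXL2, MMP2 and FBN1. COL5A1, a fibrillar collagen chain, rose from 10.2 ± 0.780 to 28.9 ± 2.07 CPM (log2 fold change 1.502, FDR 1.89e-07). TPM1, a tropomyosin, rose from 109 ± 4.17 to 201 ± 8.73 CPM (log2 fold change 0.88, FDR 1.40e-07). The 5 that fell were ACTA2, CD44, LOX, CALD1 and CNN3. CD44, the hyaluronan receptor, fell from 20.1 ± 2.52 to 8.44 ± 0.754 CPM (log2 fold change -1.24, FDR 5.13e-06). ACTA2, smooth muscle actin, whose span overlaps FAS and STAMBPL1, fell from 15.8 ± 1.32 to 6.37 ± 0.873 CPM (log2 fold change -1.31, FDR 6.20e-06). CDH2, which encodes N-cadherin, was at 279 ± 31.7 and 248 ± 10.6 CPM and did not pass the test (log2 fold change -0.17, FDR 0.0875), although it did with the replicate number as a block (FDR 0.0384) and without siControl replicate 1 (FDR 0.0132).

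Fibronectin receptors and relatives of SPARC were on 1 list of 16 genes, of which 15 were tested. There, 2 rose and 5 fell (median 0.013). The integrin subunits ITGAV and ITGB1, which take part in fibronectin receptors, fell as FN1 did. ITGAV went from 125 ± 9.85 to 62.2 ± 4.47 CPM (log2 fold change -1.01, FDR 3.40e-07), and ITGB1 from 129 ± 6.71 to 79.8 ± 3.72 CPM (log2 fold change -0.69, FDR 2.56e-06). SMOC1 and FSTL1, which share domains with SPARC, also fell (log2 fold changes -0.48 and -0.48, FDR 1.65e-05 and 5.39e-04). SPARCL1, another relative, fell by 0.46 on the log2 scale (FDR 0.0420), while SMOC2 rose from 1.74 ± 0.368 to 4.07 ± 0.319 CPM (log2 fold change 1.25, FDR 7.23e-04). ITGA8, an integrin subunit, rose from 1.13 ± 0.431 CPM (log2 fold change 1.03, FDR 0.0278). ITGA5, which pairs with ITGB1 as a fibronectin receptor, was at 2.64, 2.25 and 1.33 CPM in siControl and 3.30, 2.76 and 3.94 CPM in siMETTL3, higher without overlap but not past the test (log2 fold change 0.65, FDR 0.0654). ITGA4, ITGB3 and ITGB5 did not pass the test either (log2 fold changes 0.11, 0.54 and 0.059, FDR 0.289, 0.196 and 0.490). Neither the integrins nor the SPARC relatives moved as a group. SPARCL1, SMOC2 and the integrins other than ITGAV and ITGB1 were named after their values were seen, to complete the list's account.

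Hippo pathway genes and TEAD factors were all tested (26 of 26), and 3 rose and 8 fell (median -0.023). FAT4 and DCHS1, a receptor and ligand pair of atypical cadherins upstream of the pathway, fell with log2 fold changes of -1.55 and -0.65 (FDR 6.64e-08 and 3.88e-06). FAT4 dropped from 48.7 ± 2.83 to 16.7 ± 1.99 CPM. MOB1B, a cofactor of the LATS kinases whose span overlaps DCK, and AMOT, a junction protein that binds YAP1, fell by 0.49 and 0.59 on the log2 scale (FDR 3.09e-05 and 4.22e-05). The TEAD factors did not move as a group. TEAD2, whose span overlaps CD37 and DKKL1, fell from 18.5 ± 1.99 to 11.7 ± 1.202 CPM (log2 fold change -0.67, FDR 5.71e-04). TEAD4 rose from 48.0 ± 8.05 to 64.0 ± 6.41 CPM (log2 fold change 0.41, FDR 0.0161), and this call was lost without siMETTL3 replicate 1 or 2 (FDR 0.0681 and 0.0526). TEAD1 and TEAD3 did not pass the test (log2 fold changes 0.12 and 0.27, FDR 0.101 and 0.0891); TEAD1 passed it with total count scaling and without siControl replicate 3 (FDR 0.0420 and 0.0188), and TEAD3 without siControl replicate 1 (FDR 0.0193).

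Of 21 genes known as targets of YAP1 and WWTR1 with TEAD, 16 were tested, and 3 rose and 3 fell (median -0.16). CCDC80 and AMOTL2 fell, with log2 fold changes of -1.37 and -1.33 (FDR 3.95e-06 and 0.00503), AMOTL2 from only 2.35 ± 0.320 to 0.930 ± 0.377 CPM. ASAP1 and DOCK5 rose by 0.24 and 0.36 on the log2 scale (FDR 0.00305 and 0.00294). The best known target, CCN2, had 0 counts in every library. If reads were independent this would allow up to 0.138 to 0.199 CPM (3 counts in a library, counting error only). Read mates are not independent, so the limit is higher than that. CCN1 was at 0.784 ± 0.0811 CPM in siControl and 0.380 ± 0.0843 CPM in siMETTL3 and did not pass the test (log2 fold change -1.02, FDR 0.0778).

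Among 28 other EMT and mesenchymal-state transcription factors, 20 were tested, and 3 rose and 3 fell (median 0.14). FOXC1, a forkhead factor, fell from 8.53 ± 1.95 to 4.67 ± 0.417 CPM (log2 fold change -0.86, FDR 0.00206). SIX4, a homeobox factor, fell from 14.3 ± 1.97 to 9.11 ± 0.680 CPM (log2 fold change -0.65, FDR 0.00133). PRRX2, the paralog of PRRX1, rose from 48.5 ± 7.85 to 60.1 ± 2.38 CPM (log2 fold change 0.30, FDR 0.0264), and BHLHE41, whose span overlaps SSPN, rose by 0.94 from 1.10 ± 0.324 CPM (FDR 0.0239). Each of the last 2 lost its call in 4 of the 6 fits that left out a library (FDR up to 0.0979 and 0.0874). SNAI1, which encodes Snail, was at 13.96 ± 1.17 and 14.5 ± 2.34 CPM (log2 fold change 0.050, FDR 0.797). The list held 2 calls when siControl replicate 2, or either of siMETTL3 replicates 2 and 3, was removed, and 3 without siMETTL3 replicate 1.

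Corepressors and other partners of the ZEB, SNAI and TWIST factors were all tested (18 of 18), and 5 rose and 1 fell (median 0.023). CTBP2, a corepressor that ZEB proteins recruit and whose span overlaps ZRANB1, rose from 257 ± 41.9 to 379 ± 10.1 CPM (log2 fold change 0.56, FDR 0.00114). EP300, an acetyltransferase, and SIN3A, a corepressor scaffold, rose by 0.37 and 0.28 on the log2 scale (FDR 2.40e-04 and 0.00175). KDM1A, the histone demethylase LSD1, fell by 0.28 (FDR 0.00137). Without siControl replicate 1 the list held 11 calls.

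Of 26 epithelial genes 13 were tested and the rest were below the filter. Of those tested, 1 rose and 1 fell (median 0.12). CDH1, which encodes E-cadherin, stayed near 1 CPM, at 0.603, 0.951 and 1.13 CPM in siControl and 1.31, 0.781 and 0.390 CPM in siMETTL3 (log2 fold change -0.081, FDR 0.909). The groups overlapped fully. OVOL2, whose span overlaps MGME1 and SNX5, fell by 0.33 on the log2 scale (FDR 0.00869), and this call was lost without siMETTL3 replicate 2 (FDR 0.0544). KRT19, a keratin gene with processed pseudogene copies, rose from 0.969 ± 0.294 to 2.17 ± 0.233 CPM (log2 fold change 1.15, FDR 0.00869).

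Intermediate filament and lamina genes beside VIM gave 2 higher and 2 lower of 12 tested, out of 13 (median -0.069). NEFH, the heavy neurofilament chain, fell from 297 ± 30.3 to 221 ± 24.98 CPM (log2 fold change -0.42, FDR 0.00263). LMNB2, a B-type lamin, fell by 0.30 (FDR 7.36e-04), while LMNA, which encodes the A-type lamins, rose from 66.1 ± 11.5 to 90.0 ± 4.67 CPM (log2 fold change 0.44, FDR 0.00613). GFAP, whose span overlaps CCDC103 and FAM187A, rose by 0.78 from 2.44 ± 0.310 CPM (FDR 0.0121), and its call was lost without siControl replicate 2 or siMETTL3 replicate 3 (FDR 0.0567 and 0.0732).

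**Figure D4:**
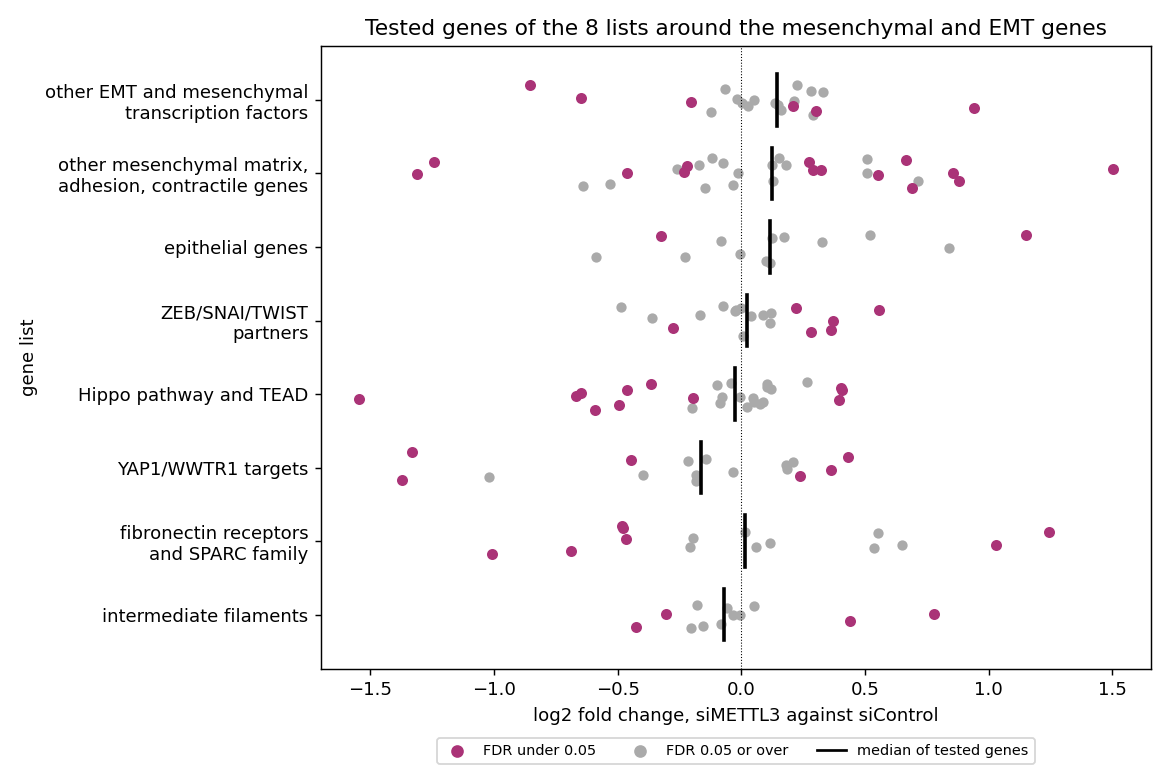
Log2 fold change of siMETTL3 against siControl (x axis) of each tested gene of the 8 lists (y axis). Purple points have an FDR under 0.05, grey points do not, and black lines are the medians of the tested genes, which lie between -0.16 and 0.14. Each list holds called genes on both sides of 0.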

How the data were processed

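The deposited values are raw read counts per gene, with a table for each library. The authors counted, per the file headers, with featureCounts v1.5.3 on a GENCODE release 33 protein-coding annotation over whole gene spans, introns included, without a strand option, without pairs counted as fragments, and with reads over several genes counted for each. The submitters' processing notes name FastQC 0.11.5, Trimmomatic 0.36, HISAT2 2.1.0 and GRCh38. Of the values from 1 to 20 counts, 75.9% were even, so read mates are not independent molecules and counting intervals are too narrow. Spans of 6603 genes (33.1%) overlap another gene of the table, none of them among the 10 genes.

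Genes were filtered with filterByExpr, scaled by TMM and tested with edgeR 4.0.16 (R 4.3.3; glmQLFit and glmQLFTest, robust, 6 libraries, no covariate). Log2 fold changes are siMETTL3 minus siControl; SE is their size over the square root of F. The fits were tested on simulated data with far fewer changed genes than were called here. Error rates for data like these were not measured. Alternatives were 3 other scalings, 2 other filters, DESeq2 1.42.0, limma-voom (limma 3.58.1), no robust option, a replicate block, each library left out, genes without overlapping spans, and, for the 10 genes, log2 ratios of mean CPM.

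Members and lists were chosen with earlier results of these data known. Named were the 10 genes, METTL3, up to 4 genes per list with the smallest FDR under 0.05 (no overlap between groups, mean of at least 1 CPM), and CDH1, CDH2, CCN1, CCN2, SNAI1 and TEAD1 to TEAD4. Further genes that complete a count were named after their values were seen. Promoter windows are from RefSeq. Some marker results are not reported here.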

Additional observations from a re-analysis of the deposited data

How the results depend on the processing

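FN1, SPARC, VIM and TWIST1 kept direction and call in every alternative run. Of 169 values of the 10 genes under alternatives, 13 lost a call (11 of ZEB2, 2 of PRRX1), 1 gained one (ZEB1) and 4 changed sign (SNAI2 and WWTR1, never past the threshold); the causes were not tested. With each library left out, log2 fold changes ran from -0.51 to 0.39 for SNAI2, -0.23 to 0.12 for WWTR1, -0.57 to 0.25 for CDH1 and -0.043 to 0.18 for SNAI1. On the same fits 2091 to 3178 genes were called higher and 2119 to 3216 lower, 2 to 4 of the 10 genes higher and 2 to 2 lower. Calls ran from 2 to 6 for the transcription factor list, 1 to 3 for the epithelial list (1 without siMETTL3 replicate 2) and 5 to 11 for the partner list. Among genes without overlapping spans, the genes called higher were 1852 and the genes called lower 1897, since only 9517 were tested. Higher genes made up 49.2% of the calls with TMM and at most 53.9% with another scaling. Whether replicate numbers pair the libraries was not settled. Deviations of same-numbered libraries correlated only weakly, at 0.0401, 0.0494 and 0.0671, but each library correlated best with its own number. Differently numbered libraries correlated at -0.0642 to 0.0263. With the replicate block 6166 genes were called, 5733 of them among the 5786, and of the named genes only CDH2 changed its call. METTL3 was not in the fit of genes without overlapping spans. Low counts left wide intervals for SNAI2 (8 to 18 counts per library), CDH1 (8 to 27) and CCN1 (6 to 17), among others.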
